A study of Mus musculus with 6 samples.

Results

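The genes of MHC class II antigen presentation were described in mouse liver RNA. They were the 10 rows of the deposited table, of 23036 in all, that carry the names H2-Aa, H2-Ab1, H2-Eb1, Cd74, H2-DMa, H2-DMb1, H2-DMb2, H2-Oa, H2-Ob and Ciita. The study sequenced poly-A RNA from the livers of female mice given a western diet for 20 weeks from the age of 8 weeks, and all 6 libraries share that diet. The control genotype is HKDC1 fl/fl (called flox below), in which the hexokinase domain gene Hkdc1 is floxed, and the other is HKDC1 LKO (LKO), in which it is deleted in the liver. The sources used here do not give the Cre driver, the strain or the number of mice behind each library. The p-values therefore cover the spread among these 6 libraries, part of which may be technical.

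By the genotype field there were 3 flox and 3 LKO libraries, but 2 titles contradict that field. The library labelled flox 3 has a title that names LKO, and the library labelled LKO 1 has a title that names flox. Hkdc1 had 49, 22 and 1 counts in the libraries labelled flox 1 to 3 and 10, 1 and 4 counts in those labelled LKO 1 to 3, so the library labelled flox 3 goes against its field. Each comparison is therefore given on 3 readings: the 4 agreeing libraries (flox 1 and flox 2 against LKO 2 and LKO 3), the groups the titles name (flox 1, flox 2 and LKO 1 against flox 3, LKO 2 and LKO 3) and the genotype field. These readings share libraries and are not independent of each other. Library names follow the genotype field throughout.

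Total counts were 16166515 to 17366295 per library. The 6 hepatocyte markers, among them the albumin gene Alb, were detected in every library, at a summed 62535 to 96714 CPM (counts scaled to the TMM-adjusted library size). LKO 2 stood apart. Its 6 adrenal cortex markers summed to 2059 CPM, against 221 CPM in LKO 3 and 6.16 to 9.57 CPM in the other 4 libraries. Fat cell markers were also present in LKO 2 and LKO 3: Plin1 had 434 and 51 counts, Adipoq 192 and 20, and Ucp1 602 and 66, against 0 to 4 counts of each in the other 4 libraries. The remaining fat marker, Cidec, was detected in every library and was highest in flox 2, at 66.3 CPM. A member's result is therefore also given without LKO 2 where that changes its call.

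MHC class II molecules are surface proteins that show peptides to CD4 T cells. An alpha and a beta chain pair in the endoplasmic reticulum with the invariant chain, which fills the groove and guides the complex to endosomes. There H2-DM exchanges the last piece of the invariant chain for peptides, and H2-O restrains H2-DM. The transactivator Ciita, recruited by factors bound to the X and Y boxes of the promoters, switches class II genes on. In liver the class II genes are typical of dendritic cells, B cells and macrophages, and they are low in hepatocytes.

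The promoters are shown because the X and Y boxes are a known feature of class II promoters, and class II levels are compared below. Whether all 10 members share that arrangement was not examined. RefSeq (GRCm38.p6) promoter sequences were searched for 7 of the 10 members. The sequences below are the 150 bases before the transcription start, read 5′ to 3′ on the strand of the gene. Capitals mark the Y box core TGATTGG, the X box core AACNGATG and, in H2-Aa, the cyclic AMP response element TGACGTCA, searched on both strands, with no overlap between matches. The 3 motifs were chosen after the sequences were seen.
H2-Aa (chr17:34287824-34287973, minus strand): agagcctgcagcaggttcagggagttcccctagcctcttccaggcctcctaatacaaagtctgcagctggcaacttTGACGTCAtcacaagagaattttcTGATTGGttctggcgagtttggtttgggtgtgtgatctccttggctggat
H2-Eb1 (chr17:34305717-34305866, plus strand): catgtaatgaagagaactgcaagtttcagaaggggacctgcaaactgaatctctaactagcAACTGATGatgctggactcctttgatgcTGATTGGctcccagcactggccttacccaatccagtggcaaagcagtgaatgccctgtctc
H2-DMb1 (chr17:34153041-34153190, plus strand): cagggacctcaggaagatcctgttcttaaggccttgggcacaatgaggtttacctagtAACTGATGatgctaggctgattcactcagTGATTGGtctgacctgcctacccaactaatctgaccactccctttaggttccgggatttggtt
H2-DMb2 (chr17:34145099-34145248, plus strand): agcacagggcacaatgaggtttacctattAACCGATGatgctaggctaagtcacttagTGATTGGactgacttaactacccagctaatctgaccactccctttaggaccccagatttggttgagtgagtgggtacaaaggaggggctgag
H2-Ob (chr17:34238755-34238904, plus strand): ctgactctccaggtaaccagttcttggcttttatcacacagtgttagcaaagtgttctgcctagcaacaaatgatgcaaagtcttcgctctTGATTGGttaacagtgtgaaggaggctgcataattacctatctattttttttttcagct
H2-Oa (chr17:34092229-34092378, plus strand): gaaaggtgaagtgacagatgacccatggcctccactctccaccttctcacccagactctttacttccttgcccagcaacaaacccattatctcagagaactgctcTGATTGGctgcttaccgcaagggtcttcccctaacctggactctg

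H2-Ab1, Cd74 and Ciita were not searched, so the counts below cover 7 of the 10 members. The Y box core was found in 6 of the 7 members, on the plus strand in each, between 92 and 39 bases before the start. Of all 32851 RefSeq promoters, 5.71% hold it in the same 150-base window. The X box core was found in H2-Eb1, H2-DMb1 and H2-DMb2, and 1.14% of all promoters hold it in that window. In these 3 genes its first base lay 28 or 29 bases before the first base of the Y box core. The response element of H2-Aa began 74 bases before its start, and 1.36% of all promoters hold that element. The remaining member, H2-DMa, has 2 RefSeq starts, and neither window holds these letters. A match describes the letters of the window and is not a measured binding site. A box whose letters differ from these would be missed, so a window without a match may still hold one.

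**Figure D1:**
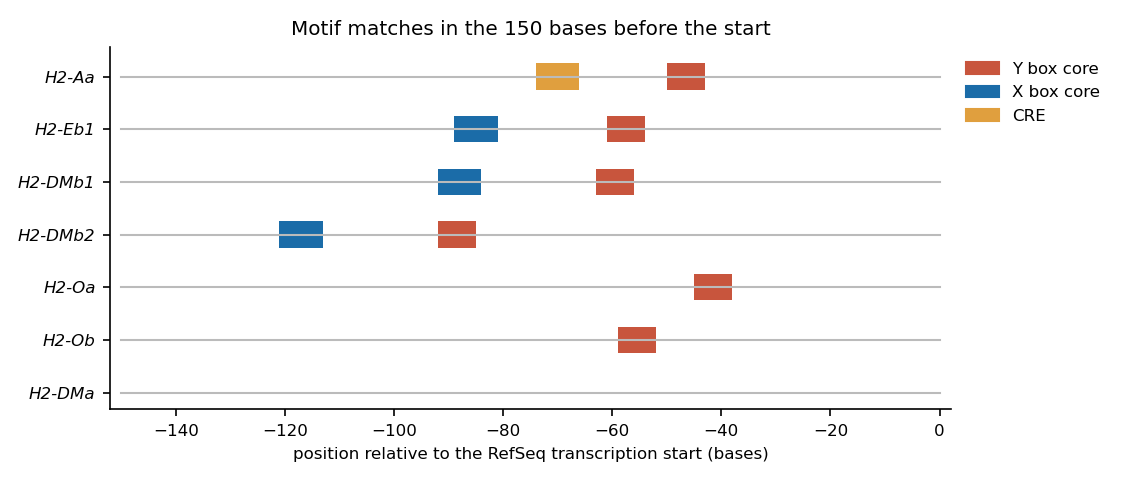
Matches to the Y box core, the X box core and the cyclic AMP response element in the 150 bases before the RefSeq start of the 7 members searched. The x axis is the distance from the start in bases and each line is a gene. The Y box core is present in 6 of the 7, and H2-DMa, drawn from 2 windows, has no match.

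The genes of the surface chains had the same order of level in all 6 libraries, with H2-Eb1 highest, then H2-Ab1 and H2-Aa, as FPKM (the authors' counts scaled to gene length and library size). H2-Aa (ENSMUSG00000036594, GRCm39 chromosome 17, 34501718 to 34506797, minus strand) encodes the alpha chain of the A molecule. Its FPKM was 78.9 in flox 1, 50.05 in flox 2, 22.9 in flox 3, 41.8 in LKO 1, 11.3 in LKO 2 and 12.0 in LKO 3. H2-Ab1 (ENSMUSG00000073421, 34476663 to 34488393, plus strand), its beta chain partner, was at 108, 70.8, 36.4, 65.9, 16.9 and 17.6 FPKM in the same order of libraries. H2-Eb1 (ENSMUSG00000060586, 34524841 to 34535648, plus strand), the beta chain of the E molecule, was at 161, 89.4, 43.4, 77.2, 20.2 and 20.9 FPKM. The H2-Eb1 row overlaps Gm20513, which was not tested on any reading, by 2204 bases on the other strand. Whether the counting used strand is not stated in the sources used here. For each of the 3 genes flox 1 was highest, LKO 2 and LKO 3 were lowest, and the 2 libraries with contradictory labels lay between the agreeing groups. LKO 1 lay above flox 3 in all 3 genes. The groups of the 4 agreeing libraries and of the titles therefore did not overlap, and the groups of the genotype field did.

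The 3 surface chain genes fell in LKO in the 4 agreeing libraries. Group folds of a gene, here and below, are from the edgeR fit of TMM-scaled counts, not from the FPKM means. H2-Aa went from 64.5 ± 20.4 to 11.6 ± 0.496 FPKM (SD, n = 2 each), with an edgeR fold of 4.99 and a log2 fold change of -2.32 (SE 0.21, adjusted p = 0.0195 by edgeR). H2-Ab1 went from 89.5 ± 26.5 to 17.2 ± 0.484 FPKM, with an edgeR fold of 4.67 and a log2 fold change of -2.22 (SE 0.20, adjusted p = 0.0195 by edgeR). H2-Eb1 went from 125 ± 50.4 to 20.5 ± 0.493 FPKM, with an edgeR fold of 5.45 and a log2 fold change of -2.45 (SE 0.25, adjusted p = 0.0259 by edgeR). By the titles the folds were 3.38, 3.17 and 3.53, none past the threshold (adjusted p from edgeR of 0.0737, 0.0873 and 0.0897). By the genotype field they were 2.14, 1.98 and 2.27, again none past it (0.574 to 0.604 from edgeR). In bulk liver, fewer cells that carry class II and less class II RNA per cell cannot be told apart.

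The chains kept nearly fixed proportions while their level changed. The FPKM ratio of H2-Aa to H2-Ab1 was 0.629 to 0.729 over the 6 libraries, and that of H2-Eb1 to H2-Ab1 was 1.17 to 1.48. Between the highest and the lowest library these ratios differed 1.16-fold and 1.27-fold, whereas the CPM of H2-Ab1 differed 5.67-fold and that of H2-Eb1 7.04-fold. H2-Eb2, a beta chain gene next to H2-Eb1, had 20 and 8 counts in flox 1 and flox 2, 4 in flox 3, 9 in LKO 1, and 4 and 1 in LKO 2 and LKO 3. It was not tested because it did not pass the filter on low counts. The longest transcripts of H2-Eb1 and H2-Eb2 (GENCODE M21) shared 0 of 1620 words of 50 bases.

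Cd74 (ENSMUSG00000024610, GRCm39 chromosome 18, 60936920 to 60945724, plus strand), which encodes the invariant chain, was the most abundant member in every library. Its FPKM was 464 in flox 1, 279 in flox 2, 157 in flox 3, 263 in LKO 1, 80.2 in LKO 2 and 86.7 in LKO 3. The libraries stood in the same order as for the surface chains. The FPKM of Cd74 went from 372 ± 130.4 to 83.4 ± 4.57 in the 4 agreeing libraries (SD, n = 2 each). By edgeR Cd74 fell 3.99-fold there (log2 fold change -2.00, SE 0.24, edgeR adjusted p = 0.0399). By the titles it was 2.84-fold lower and did not pass (edgeR adjusted p = 0.0928), and by the genotype field 1.93-fold lower (edgeR adjusted p = 0.583). Per unit of H2-Ab1, Cd74 was at 3.95 to 4.31 in flox 1, flox 2, flox 3 and LKO 1 and at 4.75 and 4.93 in LKO 2 and LKO 3. By the titles that ratio was 1.15-fold higher in LKO (exact two-sided permutation p = 0.1, the smallest possible with n = 3 each, 0.3 after adjustment over 15 ratio tests).

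**Figure D2:**
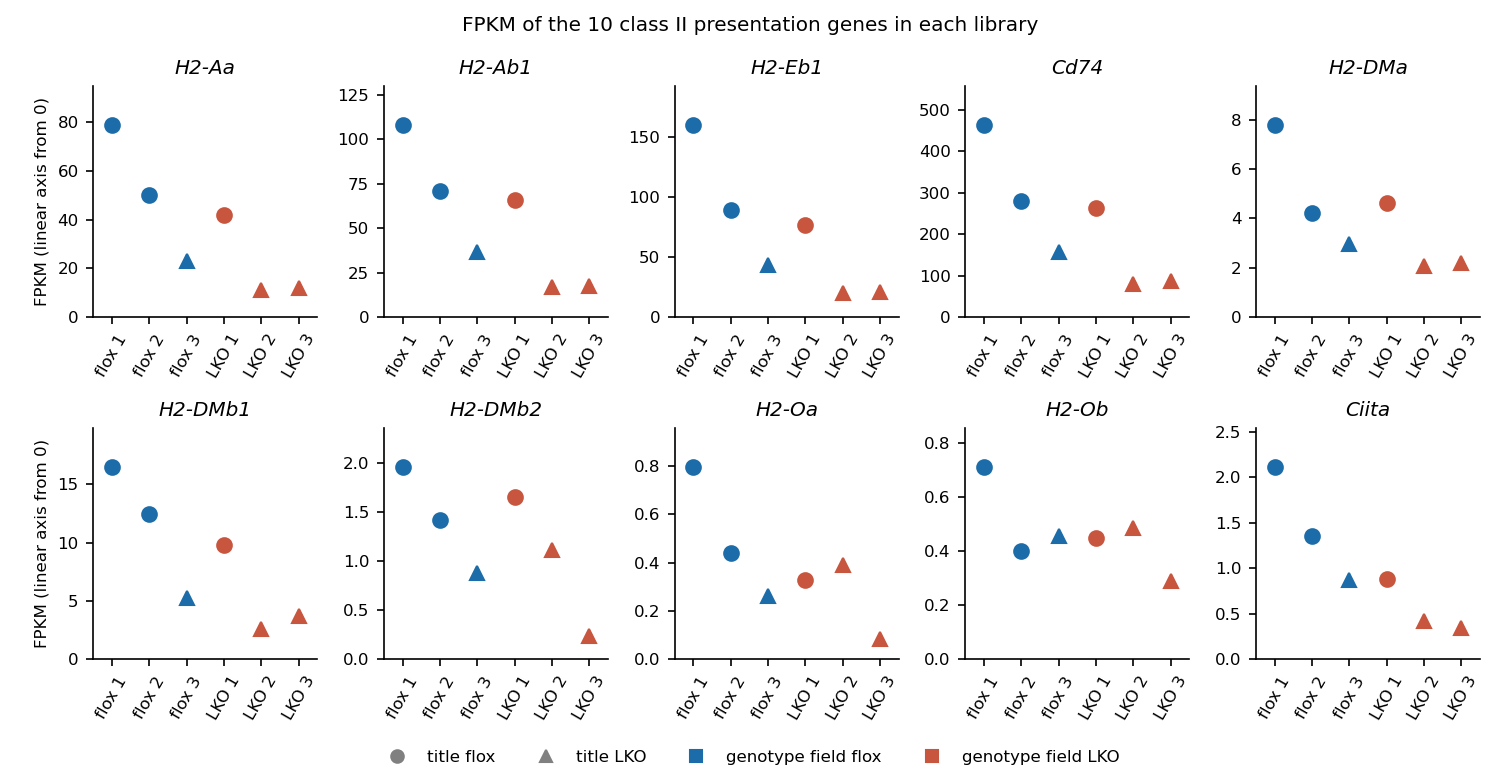
FPKM (y axis, linear from 0) of each of the 10 genes in the 6 libraries (x axis); colour gives the genotype field and shape the title. H2-Aa, H2-Ab1, H2-Eb1, Cd74, H2-DMa and H2-DMb1 are highest in flox 1 and lowest in LKO 2 and LKO 3, while H2-Ob in LKO 2 (0.487 FPKM) lies above flox 2 (0.402).

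The peptide editor H2-DM is made of an alpha chain from H2-DMa and a beta chain from H2-DMb1 or H2-DMb2. H2-DMa (ENSMUSG00000037649, chromosome 17, 34338515 to 34358075, plus strand) was at 7.80, 4.23, 2.95, 4.64, 2.08 and 2.20 FPKM in flox 1 to 3 and LKO 1 to 3. H2-DMb1 (ENSMUSG00000079547, 34372046 to 34379204, plus strand) was at 16.5, 12.5, 5.25, 9.83, 2.61 and 3.70 FPKM. Neither overlapped between the groups of the titles. H2-DMb1 fell 4.14-fold in the 4 agreeing libraries, a log2 fold change of -2.05 (SE 0.25, adjusted p = 0.041 by edgeR). H2-DMa was 2.51-fold lower there, with a log2 fold change of -1.33 (SE 0.27), and missed the threshold (adjusted p = 0.106 by edgeR). With LKO 2 left out H2-DMa passed (adjusted p = 0.0245 by edgeR), as it did with LKO 3 left out (0.0186). In both fits LKO is a single library, whose spread is taken from flox. By the titles the folds were 3.09 for H2-DMb1 and 2.12 for H2-DMa (edgeR adjusted p = 0.0633 and 0.105), and by the genotype field 1.96 and 1.55 (0.586 and 0.62). The table's H2-DMa row overlaps Brd2 on the other strand by 3094 bases, and the sources used here do not say whether the counting used strand, so its level is uncertain. It also overlaps Gm50335 by 1495 bases.

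The level of H2-DMa, the alpha chain gene of the editor, relative to H2-Ab1 differed between libraries. H2-DMa per unit of H2-Ab1 was 0.0721 and 0.0598 in flox 1 and flox 2, 0.081 in flox 3, 0.0704 in LKO 1, and 0.123 and 0.125 in LKO 2 and LKO 3. The ratio was 1.89-fold higher in LKO in the 4 agreeing libraries (exact two-sided permutation p = 0.333, the smallest possible with n = 2 each). By the titles it was 1.60-fold higher (exact p = 0.1, the smallest possible, 0.3 adjusted over the 15 ratio tests) and by the genotype field 1.46-fold higher (exact p = 0.3). The uncertainty of the H2-DMa row applies to this ratio. The beta chain gene H2-DMb1 kept no fixed proportion to H2-DMa. Per unit of H2-DMa it was at 2.12, 2.95 and 1.78 in flox 1 to 3, then 2.12, 1.25 and 1.68 in LKO 1 to 3. The H2-DMa ratio therefore does not stand for both chains of the editor.

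H2-DMb2 (ENSMUSG00000037548, 34362281 to 34370529, plus strand) was a small part of the beta chain signal, with 0.239 to 1.96 FPKM against 2.61 to 16.5 FPKM for H2-DMb1, and it rested on 7 to 58 counts per library. It was at 1.96 and 1.42 FPKM in flox 1 and flox 2, 0.877 in flox 3, 1.65 in LKO 1, 1.12 in LKO 2 and 0.239 in LKO 3. LKO 2 and LKO 3 therefore differed from each other more for this gene than for H2-DMb1. Its log2 fold change did not pass on any reading (-1.19, SE 0.66, in the 4 agreeing libraries, edgeR adjusted p = 0.438). The direction by the genotype field rested on LKO 3: without it the log2 fold change of -0.41 became 0.049. The longest transcripts of H2-DMb1 and H2-DMb2 shared 361 words of 50 bases, 26.6% of those of H2-DMb1 and 25.2% of those of H2-DMb2. Reads from these stretches can be split between the copies, so both genes are uncertain, H2-DMb2 the more so at its low counts.

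H2-Oa and H2-Ob, the chains of the H2-DM inhibitor, had the lowest mean FPKM of the members over the 6 libraries, 0.384 and 0.466. In single libraries the order differed: H2-DMb2 lay below H2-Ob in LKO 3 and Ciita lay below H2-Ob in LKO 2. H2-Oa (ENSMUSG00000024334, 34311314 to 34314208, plus strand) had 19, 10 and 6 counts in flox 1 to 3, then 8, 9 and 2 counts in LKO 1 to 3. It passed the filter on low counts in the 4 agreeing libraries only, through its 2 flox libraries, and was kept in the other fits without passing it. Its log2 fold change there was -1.24 (SE 0.77, edgeR adjusted p = 0.486). H2-Ob (ENSMUSG00000041538, 34457877 to 34473388, plus strand) had 65, 35 and 40 counts in flox 1 to 3, then 42, 43 and 26 in LKO 1 to 3. Flox 1 was high, LKO 3 low and the other 4 close together, and the groups overlapped on every reading. Its log2 fold change was -0.38 (SE 0.43) in the 4 agreeing libraries, -0.24 (SE 0.31) by the titles and -0.27 (SE 0.31) by the genotype field (edgeR adjusted p 0.712 to 0.792).

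The level of H2-Ob relative to H2-Ab1 was 0.0066 and 0.00569 in flox 1 and flox 2, 0.0125 in flox 3, 0.00682 in LKO 1, 0.0288 in LKO 2 and 0.0164 in LKO 3. The ratio was 3.55-fold higher in LKO in the 4 agreeing libraries (exact two-sided permutation p = 0.333, the smallest possible with n = 2 each). By the titles it was 2.85-fold higher (exact p = 0.1, the smallest possible, 0.3 adjusted over the 15 ratio tests), and by the genotype field 1.90-fold higher (exact p = 0.2).

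Ciita (ENSMUSG00000022504, GRCm39 chromosome 16, 10297923 to 10346282, plus strand), the class II transactivator, was at 2.12 FPKM in flox 1, 1.36 in flox 2, 0.874 in flox 3, 0.882 in LKO 1, 0.422 in LKO 2 and 0.345 in LKO 3. The libraries with contradictory labels were nearly equal here, unlike for the surface chains. Ciita fell 4.09-fold in the 4 agreeing libraries (log2 fold change -2.03, SE 0.25, edgeR adjusted p = 0.0422). By the genotype field it was 2.45-fold lower and by the titles 2.42-fold lower, and neither passed (edgeR adjusted p = 0.554 and 0.201). The Ciita row overlaps Dexi on the other strand by 25888 bases, so its level carries the same uncertainty about strand as H2-DMa.

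**Figure D3:**
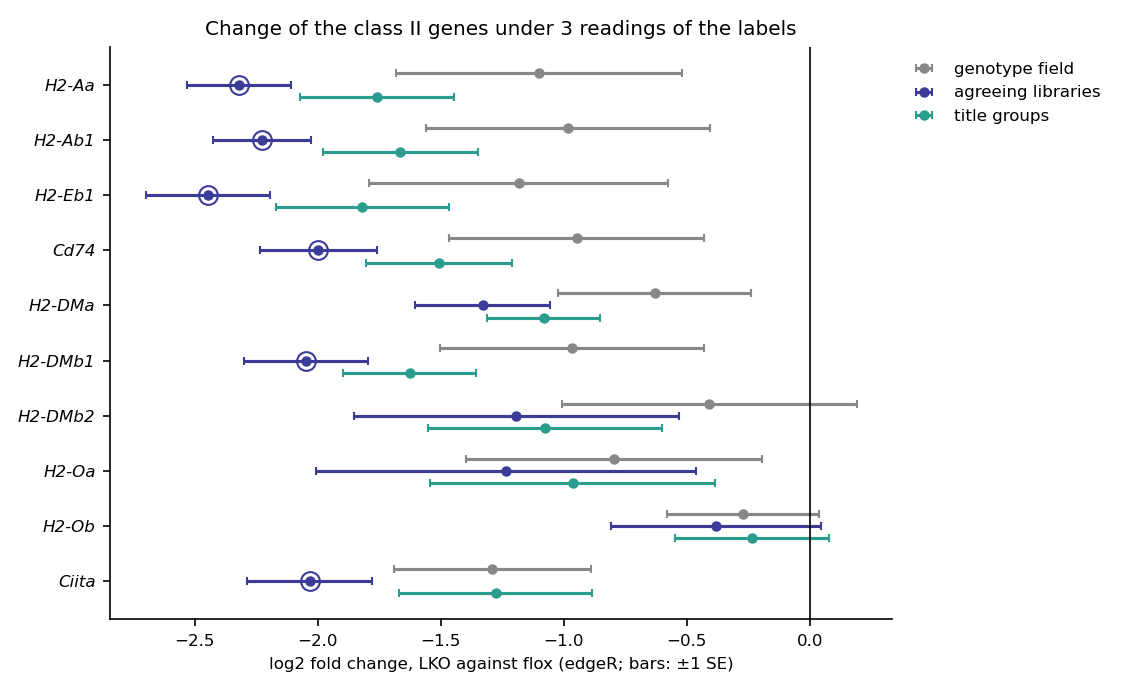
Log2 fold change of LKO against flox (x axis) for each of the 10 genes under the 3 readings of the labels, with bars of 1 SE from edgeR; an open circle around a point marks an edgeR adjusted p under 0.05. Every point lies below 0, the 6 circled points are all from the 4 agreeing libraries, and H2-Ob lies nearest to 0 on each reading.

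As a set, 6 of the 10 members fell in the 4 agreeing libraries and 4 did not pass, where 0.492% of the 14626 genes tested were called lower and 0.13% higher. The members' median log2 fold change was -2.02, beside 0.00 over all genes tested. CPM was lower in both LKO than in both flox libraries for 9 of the 10 members, all but H2-Ob, against 25.3% of all genes. For H2-Oa, which passed the filter only through its flox libraries, that order rested on 10 counts in flox 2 and 9 in LKO 2. By the titles 0 members passed in edgeR, where 0.3% of 14311 genes were called lower and 0.0559% higher, although 7 members had an unadjusted p under 0.05, as did 13.9% of all genes. By the titles DESeq2 called 7 members among 629 genes, and limma-voom called 0 members among 24 genes. The median was -1.39, beside 0.00 over all genes, and 7 members did not overlap in CPM between the groups, against 10.4% of all genes. By the genotype field 0 members and 0% of genes were called by edgeR, 1 member (Ciita) had an unadjusted p under 0.05, and Ciita was the only member whose groups did not overlap in CPM, against 6.87% of all genes. That gap was narrow (8.82 CPM in flox 3 and 8.65 CPM in LKO 1), and in FPKM the same libraries overlapped (0.874 and 0.882). Of all genes 1268 had an unadjusted p under 0.05, and DESeq2 called 35, with 0 members among them. The median there was -0.96, beside -0.01 over all genes. All 10 members were below 0 on each reading. Together they took 0.175%, 0.107% and 0.056% of all counts in flox 1 to 3, then 0.0966%, 0.0281% and 0.0296% in LKO 1 to 3.

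The 6 calls depended on flox 1, the library with the highest class II levels. Without it 0 members and 0 genes in all passed in the 4 agreeing libraries, and the adjusted p of the 6 members became 0.0691 to 0.188, with a median over the 10 members of -1.75. Without LKO 2 there were 7 members among 759 genes called, where all 4 libraries gave 6 among 91, and a median of -2.13.

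On chromosome 17, 8 of the members lie in a stretch of 224335 bases (GRCm39, 34311314 to 34535648), in which 9 other genes of the table lie or reach in. Of those, 5 were tested in the 4 agreeing libraries and 0 passed. They were the chromatin reader gene Brd2, the immunoproteasome genes Psmb8 and Psmb9, and the peptide transporter genes Tap1 and Tap2, whose products serve MHC class I. Their log2 fold changes were 0.11 (SE 0.14) for Brd2, -0.22 (SE 0.17) for Psmb9, -0.08 (SE 0.12) for Tap1, -0.12 (SE 0.12) for Psmb8 and 0.02 (SE 0.13) for Tap2 (edgeR adjusted p 0.575 to 0.949). Psmb9, Tap1, Psmb8 and Tap2 follow H2-DMb1, which fell, and precede H2-Ob, which did not pass, and H2-Ab1, which fell.

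**Figure D4:**
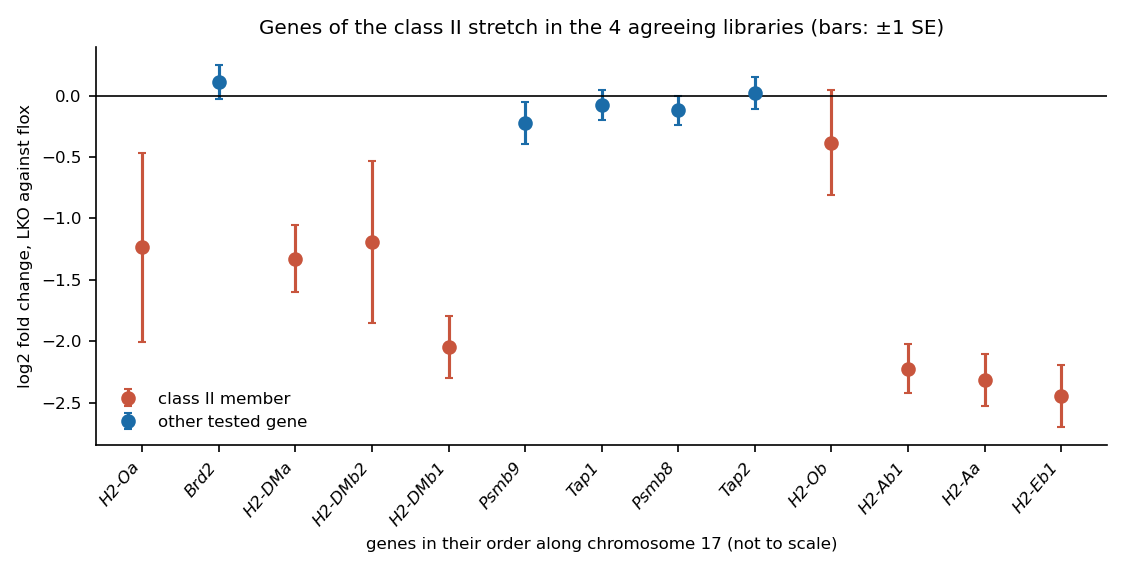
Log2 fold change of LKO against flox (y axis) in the 4 agreeing libraries for the 13 tested genes of the class II stretch, in their order along chromosome 17, with bars of 1 SE. The 5 other genes lie between -0.22 and 0.11, beside class II genes that lie between -2.45 and -0.38.

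Class I presentation, which every nucleated cell carries, gives a comparison within the same libraries. Of 10 class I genes 0 passed on any reading, and their median log2 fold change was -0.05 in the 4 agreeing libraries, where the lowest p belonged to the immunoproteasome gene Psmb10 (0.38, edgeR adjusted p = 0.259) and to Psmb9. H2-K1, a class I heavy chain gene, was at 1617, 1793 and 1789 CPM in flox 1 to 3, then 2070, 1780 and 1875 CPM in LKO 1 to 3. H2-Ab1 per unit of H2-K1, as FPKM, was 0.172 and 0.116 in flox 1 and flox 2, 0.0633 in flox 3, 0.0962 in LKO 1, 0.0276 in LKO 2 and 0.0292 in LKO 3. This ratio was 4.98-fold lower in LKO in the 4 agreeing libraries (exact two-sided permutation p = 0.333, the smallest possible with n = 2 each). By the titles it was 3.35-fold lower (exact p = 0.1, the smallest possible, 0.3 adjusted over the 15 ratio tests) and by the genotype field 2.54-fold lower (exact p = 0.2).

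Genes that work with class II were counted in the same way. Of 13 factors that act on class II promoters or control Ciita, 0 passed on any reading, with a median of -0.04 in the 4 agreeing libraries. The lowest p there belonged to the Y box subunit gene Nfyb (0.34, adjusted p = 0.265 by edgeR) and to Irf8, a factor of dendritic cells and macrophages (-0.56, adjusted p = 0.266). Of 11 tested genes of interferon gamma signalling, a known inducer of Ciita, 0 passed (median -0.23), with Ifngr2, a receptor chain, at -0.43 and the chemokine gene Cxcl9 at -0.60 (edgeR adjusted p = 0.186 and 0.213). Ifng itself had 0 to 5 counts per library. Of 10 endosomal processing enzymes 0 passed (median -0.38). Ctss, the cathepsin that trims the invariant chain, was at 208 and 132 CPM in flox 1 and flox 2, 80.1 in flox 3, 96.7 in LKO 1, and 81.9 and 64.0 in LKO 2 and LKO 3 (log2 fold change -1.22 in the 4 agreeing libraries, adjusted p = 0.112 by edgeR). Ctsk, another cathepsin gene, had a log2 fold change of -2.22 (adjusted p = 0.127 by edgeR).

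Genes met by class II on the way out and at the surface were also counted. Of 5 genes of class II surface turnover 0 passed (median -0.26), with Cd83 at -0.79 and the ubiquitin ligase gene Marchf1 at -0.77 (edgeR adjusted p = 0.288 and 0.332). Of 5 tested co-stimulation and checkpoint ligand genes 0 passed (median -0.40), with Icosl at -0.68 and Cd86 at -0.40 (edgeR adjusted p = 0.509 and 0.536). Of 6 tested T cell receptor and checkpoint genes of CD4 T cells 0 passed (median -0.29). Lag3, an inhibitory receptor for class II, had a log2 fold change of -1.11 (edgeR adjusted p = 0.359) and Cd3g -0.43 (edgeR adjusted p = 0.79).

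Markers of the cells that carry class II were set beside these levels, and their part in the result was not tested. The pan-leukocyte gene Ptprc stood at 64.0 CPM in flox 1, 40.1 in flox 2, 32.6 in flox 3, 32.4 in LKO 1, 53.2 in LKO 2 and 29.2 in LKO 3 (log2 fold change -0.34 in the 4 agreeing libraries, adjusted p = 0.67 by edgeR). LKO 2 thus had more Ptprc than flox 2 and less of the class II chains. LKO 2 also carried the adrenal cortex and fat markers given above, and which tissue its Ptprc RNA came from was not tested. H2-Ab1 per unit of Ptprc, as FPKM, was 27.1, 32.3 and 21.6 in flox 1 to 3, then 38.3, 5.76 and 11.7 in LKO 1 to 3. The ratio was 3.61-fold lower in LKO in the 4 agreeing libraries (exact two-sided permutation p = 0.333, the smallest possible with n = 2 each), 2.85-fold lower by the titles (exact p = 0.1, the smallest possible, 0.3 adjusted over the 15 ratio tests) and 1.95-fold lower by the genotype field (exact p = 0.4).

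The summed level of recruited and lipid-associated macrophage markers, most of it Spp1 and Gpnmb, was high and low in the same libraries as class II. All 8 were detected in every library, at a summed 791 and 518 CPM in flox 1 and flox 2, 122 in flox 3, 267 in LKO 1, and 69.4 and 100.5 in LKO 2 and LKO 3. Trem2, a lipid-sensing receptor gene, fell in the 4 agreeing libraries (log2 fold change -3.27, adjusted p = 0.0455 by edgeR), as did Spp1, which encodes a secreted matrix protein (-3.27, adjusted p = 0.0291), while 0 rose and 6 did not pass (median -2.68). By the titles Trem2 alone passed, and by the genotype field 0 passed. The monocyte markers of this list were divided, and they were named after their values were seen. Ccr2 and Cx3cr1 were lower in LKO 2 and LKO 3 than in flox 1 and flox 2. Their log2 fold changes in the 4 agreeing libraries were -2.22 and -3.14 (edgeR adjusted p = 0.104 and 0.0627). Itgam and Ly6c2 were instead higher in LKO 2 than in flox 2. Itgam was at 3.86 CPM in LKO 2 and 2.60 in flox 2, and Ly6c2 at 3.50 CPM in LKO 2 and 1.11 in flox 2. Dendritic cell markers summed to 75.0 and 48.2 CPM in flox 1 and flox 2, 33.7 in flox 3, 39.2 in LKO 1, and 37.7 and 30.3 in LKO 2 and LKO 3. Of 8 tested 0 passed (median -0.58), with the integrin gene Itgax at -1.89 and the receptor gene Flt3 at -1.35 (edgeR adjusted p = 0.111 and 0.205). B cell markers summed to 26.2 and 10.9 CPM in flox 1 and flox 2, 12.1 in flox 3, 15.8 in LKO 1, and 13.8 and 8.17 in LKO 2 and LKO 3, so that flox 2 and LKO 2 overlapped. Of 6 tested 0 passed (median -0.69), with the B cell receptor component gene Cd79a at -1.10 (edgeR adjusted p = 0.297).

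Kupffer cell markers did not follow class II. They summed to 597, 685 and 770 CPM in flox 1 to 3, then 702, 940 and 625 CPM in LKO 1 to 3, and of 8 tested the scavenger receptor gene Cd163 rose (log2 fold change 4.21, adjusted p = 0.0176 by edgeR) and 7 did not pass (median 0.49), Timd4 among them (2.36, adjusted p = 0.159). Clec4f, a lectin of Kupffer cells, was at 136, 205 and 293 CPM in flox 1 to 3, then 235, 213 and 226 CPM in LKO 1 to 3. The high sum of LKO 2 included Marco at 98.6 CPM, against 2.25 to 13.6 CPM in the other libraries. It also included Adgre1 at 120 CPM, against 42.2 to 55.4 CPM. LKO 2 carried the adrenal cortex and fat markers too, and which tissue its Kupffer marker RNA came from was not tested. T cell markers had a median of -0.24, with 0 of 7 past the threshold and Icos (0.57) and Lck (-0.48) of lowest p. Sinusoidal endothelial markers had a median of 0.11, with 0 of 6 past it and Lyve1 (-0.59) and Clec4g (0.84) of lowest p, and hepatocyte markers a median of 0.43, with 0 of 6 past it. Cholangiocyte markers, of the bile duct lining, were high and low in the same libraries as class II and the recruited macrophage markers. They summed to 37.1 and 20.0 CPM in flox 1 and flox 2, 9.34 in flox 3, 13.6 in LKO 1, and 6.27 and 7.03 in LKO 2 and LKO 3. Of 4 tested 0 passed (median -2.45), with Epcam at -2.57 and Krt7 at -2.64 (adjusted p = 0.0764 and 0.0833 by edgeR). The 5 lymphoid tissue markers summed to 26.2 CPM in LKO 2, 6.97 in LKO 3 and 1.92 to 4.50 in the others, and of 3 tested 0 passed. Most of the sum in LKO 2 was the chemokine gene Cxcl13, at 24.5 CPM or 406 counts there and 6 to 60 counts in the other libraries, while Cr2, Fcer2a, Ccl19 and Ccl21a were each under 1 CPM in LKO 2. Of the adrenal cortex markers 0 of 6 passed, and of the fat markers 0 of 4. The adrenal cortex signal of LKO 2 and LKO 3 lies in the same libraries as the low class II levels. These markers summed to 2059 CPM in LKO 2 and 221 CPM in LKO 3, which had nearly the same FPKM of H2-Aa, H2-Ab1, H2-Eb1 and Cd74. They summed to 9.57 and 7.05 CPM in flox 1 and flox 2. The library labelled flox 3, which the titles group with LKO 2 and LKO 3, had 8.11 CPM of adrenal cortex markers and class II chains below flox 1, flox 2 and LKO 1. The part of this signal in the result was not tested. In the 4 agreeing libraries it cannot be told apart from genotype.

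**Figure D5:**
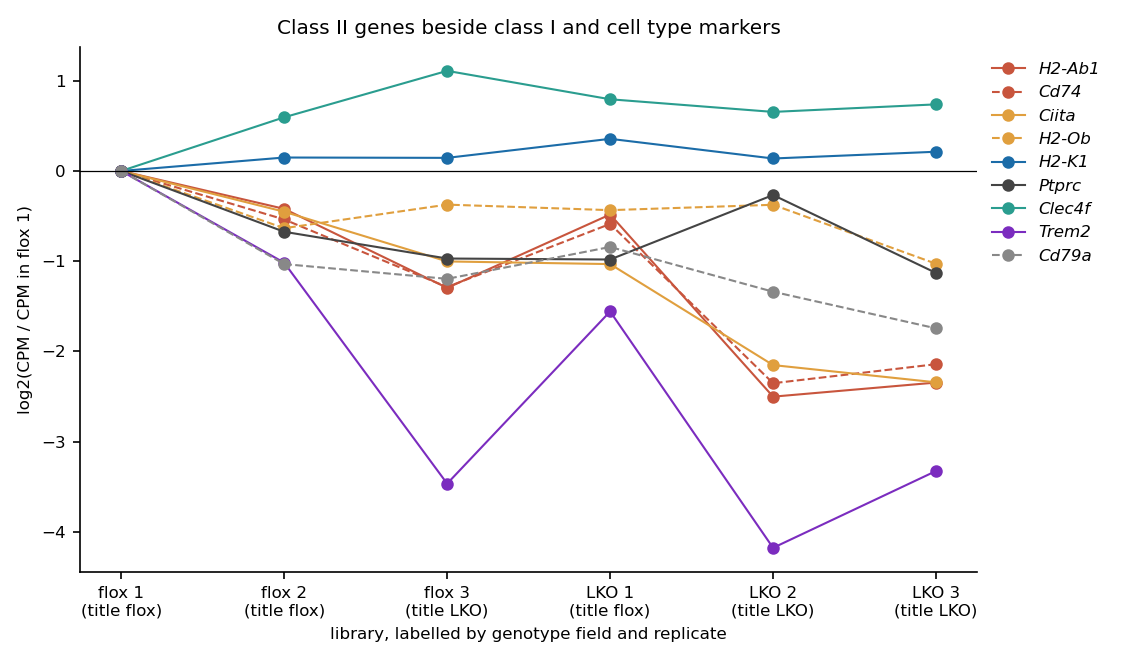
Level of 4 class II genes, the class I gene H2-K1 and 4 cell type markers in each library, as log2 of CPM over CPM in flox 1 (y axis, lines only join the points of a gene). H2-Ab1, Cd74 and Ciita are lowest in LKO 2 and LKO 3, Trem2 is low in flox 3, LKO 2 and LKO 3, and H2-K1 and Clec4f lie above 0 in every library but flox 1.

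The genes whose pattern over the 6 libraries was nearest to the members' own were named by root-mean-square distance. The distance was taken between log2(CPM + 1) values centred per gene and the mean of the 9 members with at least 1 CPM, over 10420 genes with at least 5 CPM. The nearest was the metalloprotease gene Amz1, at a distance of 0.138, with 11.4 and 8.97 CPM in flox 1 and flox 2, 5.19 in flox 3, 7.88 in LKO 1, and 2.05 and 3.10 in LKO 2 and LKO 3. Next came Prss8 (0.17), a serine protease of epithelia, Art4 (0.175), Ttc39a (0.19), Plekha1 (0.196), Tnfrsf12a (0.199), the receptor of the cytokine TWEAK, Gdf3 (0.203), 2010003K11Rik (0.213), B4galt6 (0.214) and the class I family gene H2-Q1 (0.222). Of the members, Cd74 (0.163) and Ciita (0.183) lay nearest to the mean pattern and H2-Ob (0.605) and H2-Oa (0.549) farthest. On log2(CPM + 1) the changes of genes near or below 1 CPM are flattened. H2-Oa, with a mean of 0.522 CPM, is not among the 9 members of the mean. Its CPM differed 7.75-fold between the highest and lowest library, the most of the members, but its range on this scale was 0.815. The distance of H2-Oa therefore does not show that its relative change was small.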

How the data were processed

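The authors deposited 1 table of whole-number counts and FPKM per gene for 6 liver mRNA libraries. Per the submitters' processing notes, fastp, HISAT, StringTie, Cufflinks and featureCounts were used with build GRCm39. The notes give no versions or roles, and neither annotation nor strandedness is stated in the sources used here. The deposited FPKM equal count over a fixed gene length and the library's total, within 0.036% over 7260 genes with at least 200 counts.

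The deposited counts were tested with edgeR 4.0.16 (glmQLFTest, R 4.3.3) after filterByExpr (minimum count 10, total 15), which the 10 members bypassed, with TMM scaling and Benjamini-Hochberg adjustment over all genes at 0.05. The SE is the log2 fold change over the square root of F. Alternatives were other size factors and filters, DESeq2 1.42.0, limma 3.58.1 (voom, and trend on log2(FPKM + 1) and log2(FPKM + 0.1)) and leaving out each library. The edgeR script was tested on simulated data. A count of 3 equals 0.173 to 0.186 CPM, so H2-Oa is near the limit of this depth.

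The members, lists and rule for named genes (all members, the 2 genes of lowest p per list, the 10 nearest patterns) were chosen with earlier results of these data known. The value of 1 gene that the rule names is not reported here. Ratios use FPKM. Genes named outside that rule were chosen after their values were seen. Among them are H2-Eb2, H2-K1, Clec4f, Marco, Adgre1, Gpnmb, Cxcl13, Ifng, Brd2 and its neighbours. Of 4 further class II names, 3 did not match the table.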

Additional observations from a re-analysis of the deposited data

How the results depend on the processing

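All 10 members kept a log2 fold change below 0 under every alternative run with the 4 agreeing libraries or by the titles. By the genotype field the exception was H2-DMb2, at 0.049 without LKO 3. In the 4 agreeing libraries 4 to 7 members were called under the other scalings, filters and tools, H2-DMb1 and Ciita being those lost with upper-quartile factors and by limma-voom. The count ranged from 0 (without flox 1) to 7 when 1 library was left out, and the median from -2.21 to -1.75. That median was -1.51 on log2(FPKM + 1), a scale that understates changes of low genes. By the titles, where edgeR called 0 members, 6 were called with no filter on low counts and 7 by DESeq2; leaving out 1 library gave 0 to 4 calls (4 without flox 3, 1 without LKO 1) and medians from -1.85 to -1.15. By the genotype field 0 members were called under any alternative, and the median ranged from -1.73 (without LKO 1) to -0.628 (without flox 1). A group left with 1 library takes its spread from the other group. Over all genes the count of calls moved by more than 1.5 times. From 91 in the 4 agreeing libraries it became 57 with upper-quartile factors, 44 by limma-voom, 734 by DESeq2 and 1109 with no filter, and with 1 library left out 0 (flox 1), 50 (flox 2), 759 (LKO 2) or 630 (LKO 3). From 51 by the titles it became 24 by limma-voom, 25 with a mean of at least 1 CPM, 629 by DESeq2 and 247 with no filter, and 0 (without flox 2) to 239 (without LKO 1) when 1 library was left out. No paired analysis was possible because the replicate numbers follow only the order of deposit and pair no libraries. Depth limits H2-Oa and H2-DMb2 most.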
